A study of Mus musculus with 10 samples.

Results

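The mouselincRNA probes are 322 probes with a plus sign and 327 with a minus sign in their names, of 60915 non-control probes on a microarray for long non-coding and messenger RNA. They were chosen by name alone: every probe whose name starts with mouselincRNA. Each name holds a region number and a plus or minus sign, as in mouselincRNA0325+, and each probe has 1 spot on the array. The names cover 332 numbered regions, of which 317 have 1 probe of each sign and 15 have a probe of 1 sign. In array designs of this kind such a sign commonly names the DNA strand, which the files do not state, so the probes are called plus-sign and minus-sign probes. No sequence or position of these probes was used here, and no gene is named for them.

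The RNA came from whole blood of 10 female C57BL/6 mice aged 3 months, with 1 array for each mouse. Multi-walled carbon nanotubes (MWCNT), which are nested cylinders of carbon, had been given to 5 mice at 40 µg by pharyngeal aspiration, where a liquid laid at the back of the throat is breathed into the lung, and the blood was taken at day 56. The 5 control mice had received the vehicle alone. The labels number the mice 1 to 5 in each group, and the question was whether these probes differed between exposed and control blood. The file headers place the arrays in 2 scan runs. Run 1 holds all 5 controls and MWCNT mice 1 to 3, and run 2 holds MWCNT mice 4 and 5 alone, so every comparison is given over all 10 arrays and again within run 1. Of 28 marker genes listed for blood cells and lung, 1 could be checked, because the files give gene accessions for 15 probes only. This was Tfrc, the transferrin receptor of immature red cells, which was well above background on all 10 arrays, at levels of -1.28 to -0.77 in controls, -0.99 to -0.30 in MWCNT mice of run 1, and -2.07 and -0.55 in run 2. Its part in the results below was not tested.

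Long intergenic non-coding RNAs (lincRNAs) are long transcripts that lie between protein-coding genes and are not translated into a protein. Many were first listed as regions of the genome that carry the chromatin marks of an active promoter and of a transcribed gene body but hold no known gene, which leaves the transcribed strand to be found by probes for each strand. LincRNAs tend to be less abundant and more tissue-restricted than messenger RNAs, and some take part in gene regulation in blood cells, at the level of chromatin, transcription or RNA stability.

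The mouselincRNA probes gave signal less often than the array as a whole. A probe counts as well above background when the scanner software finds its signal clearly over that of its surroundings and of negative control probes. On control arrays 1 to 5, 174, 196, 189, 193 and 179 of the mouselincRNA probes were well above background, or 26.8, 30.2, 29.1, 29.7 and 27.7%. On arrays of MWCNT mice 1 to 5 the numbers were 177, 177, 190, 267 and 274, or 27.3, 27.3, 29.3, 41.1 and 42.2%. The 8 arrays of run 1 thus lie close together whatever their group, and both arrays of run 2 lie above all of them. Over all probes the share was 42.0 to 47.7% in run 1, and 55.3 and 58.5% in run 2, so the mouselincRNA probes were below the array as a whole on each of the 10 arrays. A second class of probes on the array, named humanlincRNA, had shares of 25.1 to 29.1% in run 1, and 37.8 and 40.3% in run 2. The low share is thus not particular to the mouselincRNA probes.

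**Figure D1:**
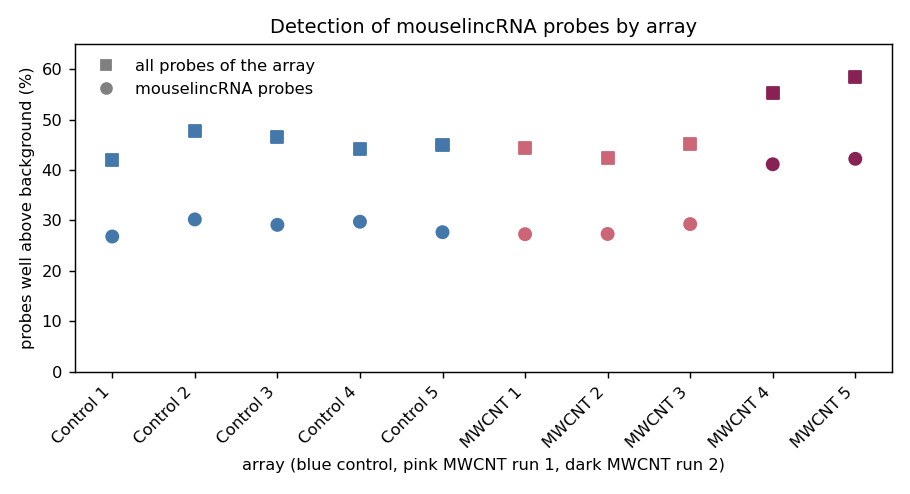
Share of probes well above background (%, y axis) on each of the 10 arrays (x axis), for the mouselincRNA probes (circles) and for all 60915 probes (squares); blue marks controls, pink MWCNT mice of run 1 and dark red MWCNT mice of run 2. The mouselincRNA probes sit at 26.8 to 30.2% in run 1 and at 41.1 and 42.2% in run 2, under the squares throughout.

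Exposed and control mice of the same run did not differ in detection beyond the spread between mice. Within run 1 the share was 28.0% ± 1.14 (SD, n = 3) in MWCNT mice and 28.7% ± 1.43 (SD, n = 5) in controls, a difference of -0.75 percentage points, against -1.12 for all probes. Over all 10 arrays the MWCNT share was 33.4% ± 7.57 (SD, n = 5), an excess of 4.74 points over controls. That SD spans both runs, with MWCNT 1 to 3 at 27.3 to 29.3% and MWCNT 4 and 5 at 41.1 and 42.2%. It is therefore no measure of the spread between mice of 1 run. The 2 MWCNT arrays of run 2 averaged 41.7% ± 0.763 (SD, n = 2), which is 13.7 points and 1.49 times the MWCNT arrays of run 1. The same step was 12.9 points and 1.29 times for all probes, and 12.3 points and 1.46 times for the humanlincRNA probes. Negative control probes read 61.0 to 71.9 signal units in run 1, and 38.8 and 39.3 in run 2, and their part in the higher share of run 2 was not tested. Run 2 holds no control, so exposure and scan run cannot be told apart there.

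Signal was close to all-or-none for most of these probes. Of the mouselincRNA probes, 345 (53.2%) were well above background on no array and 153 (23.6%) on all 10, while 151 (23.3%) were so on 1 to 9 arrays. Among all probes of the array 37.4% had signal on no array and 38.2% on every array. The mouselincRNA probes therefore lean towards no signal, with a similar share of intermediate probes (24.5% over the array). In run 1 alone, 410 were at background on every array, 155 were above it on all 8, and 84 on 1 to 7.

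**Figure D2:**
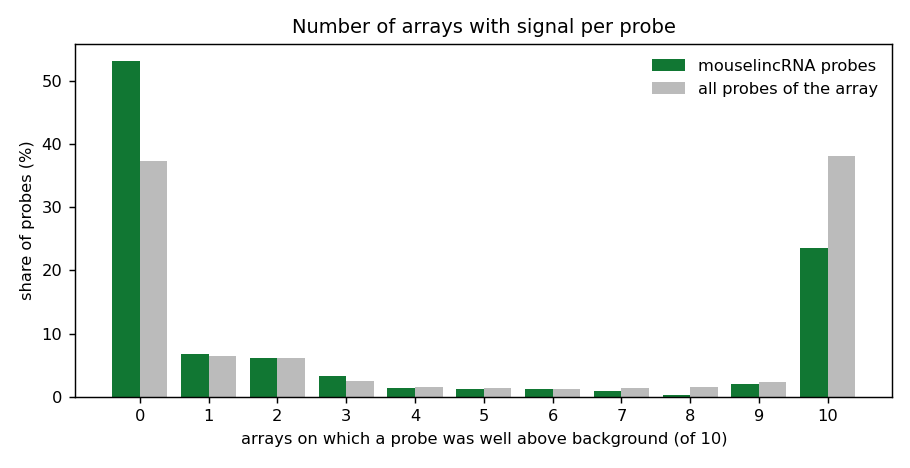
Share of probes (%, y axis) by the number of arrays, 0 to 10, on which a probe was well above background (x axis); green bars are the mouselincRNA probes and grey bars all 60915 probes. Most probes fall at the ends, 53.2% of the mouselincRNA probes at 0 arrays and 23.6% at 10.

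No mouselincRNA probe gave signal in every mouse of one group and in no mouse of the other. In run 1, 0 were well above background in all 3 MWCNT mice and no control, and 0 in all 5 controls and no MWCNT mouse. Over all probes there were 1 and 30 such cases, or 0.00164% and 0.0492% of 60915. Across all 10 arrays the shares of all probes were 0.00164% for MWCNT mice alone and 0% for controls alone. Such patterns were thus rare on the whole array, and their absence here is not particular to the mouselincRNA probes. By scan run, 38 probes (5.86%, against 4.91% of all probes) were well above background on both arrays of run 2 and on none of run 1. They were dim there, with a median level of -6.09 and a range of -6.81 to -4.55. The level used here and below is the log2 processed signal minus the array's 75th percentile, set over the 23245 probes with signal well above background in all 10 mice.

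Where a region gave signal, it mostly came from 1 of its 2 probes. Among the 317 regions with both signs, 159 had a probe well above background on at least 5 arrays, and in 129 of these (81.1%) it was 1 sign alone. The plus-sign probe was alone in 63 regions and the minus-sign probe in 66, both signs had signal in 30, and neither had it in 158. Neither sign was thus favoured: 93 plus-sign and 96 minus-sign probes passed. Of the probes that passed, 31.7% had a partner that passed too, close to the 29.8% of all probes in these pairs that passed. A probe's signal thus said little about its partner, and at such rates most regions with signal have it from 1 sign. In 78 regions the contrast was complete, with 1 probe well above background on all 10 arrays and its partner on none, for the plus sign in 35 and the minus sign in 43. Of all mouselincRNA probes 23.6% were above background on all 10 arrays and 53.2% on none. Many such regions therefore arise even where the 2 probes are unrelated.

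The pattern held on every array of run 1, where 80.4 to 83.4% of the regions with any signal had it from 1 sign. In run 2 the share was 75.6% and 74.1%, and regions with signal from both signs numbered 52 and 56, against 25 to 31 in run 1. In 0 regions did the signal pass from one sign to the other between exposed and control mice. The humanlincRNA probes are also paired and gave a like picture. Of 265 of their 547 pairs with any signal on at least 5 arrays, 224 (84.5%) had it from 1 sign. The remaining 15 mouselincRNA regions, with 1 probe each, had 3 probes above background on any array.

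**Figure D3:**
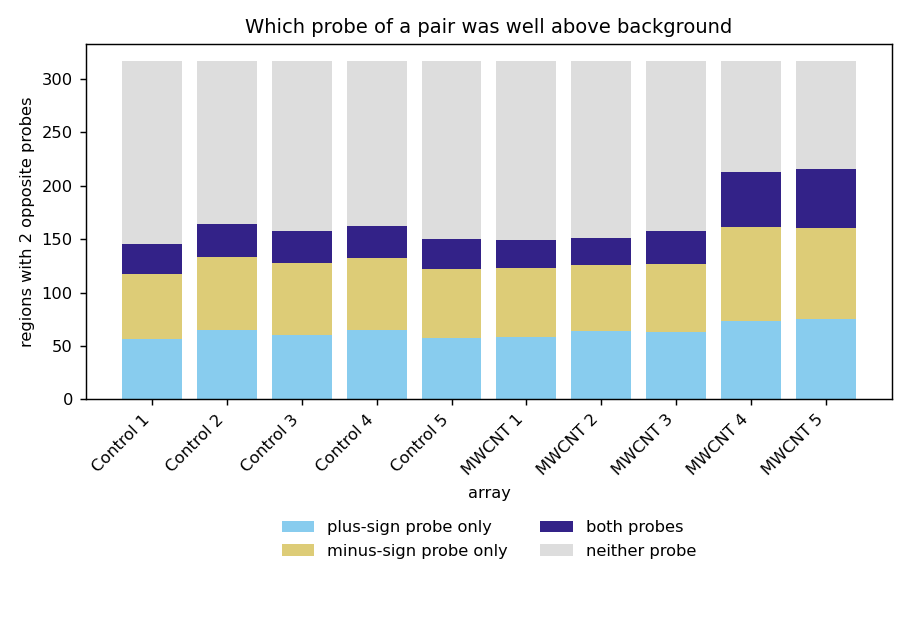
Number of the 317 paired regions (y axis) on each array (x axis) in which the plus-sign probe alone, the minus-sign probe alone, both probes or neither was well above background. Regions with both number 25 to 31 in run 1 and 52 and 56 on the last 2 arrays, MWCNT 4 and 5, which form run 2.

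The brightest probes show this contrast between signs only in part. Brightness on a microarray depends on the probe's own sequence as well as on RNA abundance, so the order of probes is not an order of abundance. The 5 tested probes of highest mean level were mouselincRNA0543-, mouselincRNA0052-, mouselincRNA1606-, mouselincRNA0344- and mouselincRNA1377+. For mouselincRNA0052-, mouselincRNA1606- and mouselincRNA0344- the plus-sign partner was above background on 0 arrays. For mouselincRNA0543- and mouselincRNA1377+ the partner was above background on all 10.

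The brightest, mouselincRNA0543-, read 5.85, 5.95, 6.05, 5.93 and 6.18 in controls 1 to 5 and 6.08, 6.15, 5.69, 4.93 and 4.85 in MWCNT mice 1 to 5. For mouselincRNA0052- the levels were 5.56, 5.48, 5.35, 5.53 and 5.20 in controls and 5.31, 5.34, 5.37, 4.92 and 4.87 in MWCNT mice. On this scale both are nearly flat over run 1, and MWCNT 4 and 5 of run 2 lie below every other array. For mouselincRNA0052- this turns with the scaling. In the authors' deposited table of log2 values MWCNT 4 and 5 were its highest arrays, at 15.90 and 15.88, with the others at 15.27 to 15.78. For mouselincRNA0543- they were the lowest there too, at 15.92 and 15.85. On mouselincRNA1377+ the controls read 4.11, 4.48, 4.73, 4.15 and 5.52, and the MWCNT mice 5.12, 4.95, 3.69, 3.49 and 3.27. It varied more, with an SD of 0.60 over run 1 against 0.17 for mouselincRNA0543- and 0.12 for mouselincRNA0052-. Against controls, over all 10 arrays, mouselincRNA0543- differed by -0.45 ± 0.27 (SE; limma adjusted p = 0.809), and within run 1 by -0.02.

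A probe was tested if its signal was well above background in 5 or more of the 10 mice, or in 4 of the 8 for run 1 and 3 of the 5 for MWCNT mice alone. Over all arrays this left 190 mouselincRNA probes among 28009. Their median level was -2.99, with quartiles of -4.54 and -1.33, and the array's tested probes had a median of -2.82. Among the 190, 26 (13.7%) lay above their array's 75th percentile on average, against 20.8% of all tested probes. The spread between mice was like that of the array: the median SD of a tested mouselincRNA probe was 0.28 among controls and 0.23 among the MWCNT mice of run 1, with 0.30 and 0.24 over all tested probes. Across all 5 MWCNT mice, which span both runs, it was 0.44 against 0.46 for the array.

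No mouselincRNA probe passed the test for a difference between MWCNT and control mice over all 10 arrays. At a Benjamini-Hochberg adjusted p under 0.05 in limma, a linear model with moderated variances, 0 of the 190 were called, beside 0% of the 28009 probes tested, and the smallest adjusted p of a mouselincRNA probe was 0.809. At an unadjusted p under 0.05, 6 had a higher MWCNT mean (3.16%, against 1.84% of all tested probes) and 1 a lower mean (0.526%, against 1.04%). That makes 7 of 190, or 3.68%, against 2.87% of all tested probes. Of the 6 higher probes, mouselincRNA0214+ and mouselincRNA0118+ passed the filter of 5 mice only through the MWCNT group. With signal required on every array the count was 4 of 153 (2.61%, against 2.85%). With each array centred on its median the 7 split into 4 higher and 3 lower. Groups that do not overlap were found for 0 mouselincRNA probes in either direction, where 0.154% of all tested probes had every MWCNT mouse above every control and 0.182% the reverse.

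The difference between the groups was centred near 0. The median log2 fold change, MWCNT minus control, was 0.02 for the mouselincRNA probes and -0.05 for all tested probes; 106 had a higher and 84 a lower MWCNT mean, or 55.8% higher against 44.7% over the array. The median SE was 0.25, and for 142 of the 190 (74.7%) the 95% confidence interval lay inside a 2-fold change in either direction, as it did for 76.6% of all tested probes. For the other probes a 2-fold difference lies within the interval. In whole blood, fewer cells of a type and less RNA per cell cannot be told apart, and the number of arrays limits the precision.

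Within run 1, where both groups were scanned together, 182 mouselincRNA probes were tested among 27295 and 0 were called in limma at an adjusted p under 0.05, beside 0% of all tested probes; the smallest adjusted p of a mouselincRNA probe was 0.913. At an unadjusted p under 0.05, 3 had a higher MWCNT mean (1.65%, against 1.21% of all tested probes) and 4 a lower one (2.20%, against 2.18%). The groups did not overlap for 2 with higher MWCNT levels (0.883% of all tested probes) and for 4 with lower levels (2.20%, against 1.54%). These shares are near those of the array. Under other scalings the split at an unadjusted p under 0.05 was 2 higher and 5 lower (median, and 75th percentile over all probes) or 1 higher and 6 lower (quantile, and the authors' deposited table). The median log2 fold change was 0.04, against 0.03 for all tested probes, and 58.2% had a higher MWCNT mean, against 58.1%. The median SE was 0.20, and for 164 probes (90.1%) the interval lay inside a 2-fold change. Run 1 does not hold the array's column on the slide constant. Controls 1 to 4 lie in column 1, and control 5 and the 3 MWCNT mice in column 2. Column and exposure can therefore be told apart in run 1 only through control 5.

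**Figure D4:**
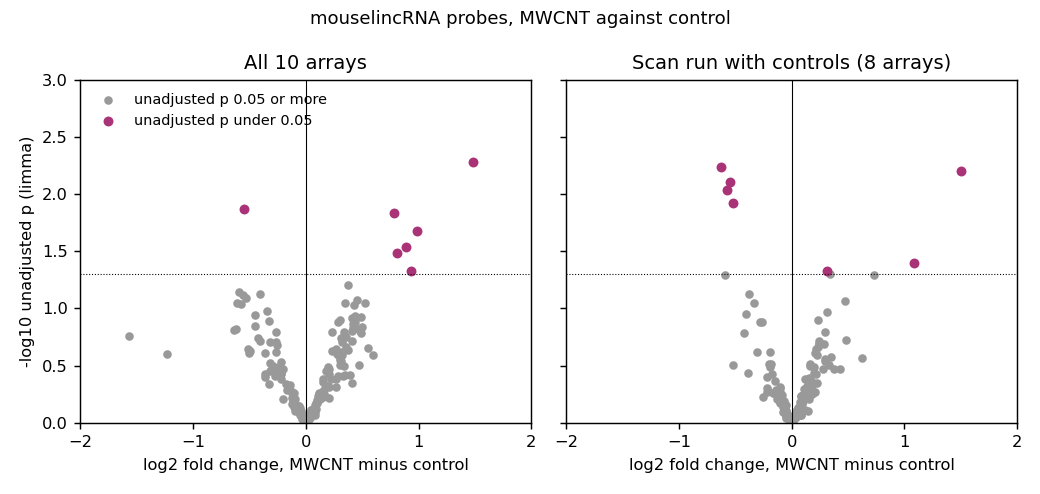
Log2 fold change, MWCNT minus control (x axis), against -log10 of the unadjusted limma p (y axis) for each tested mouselincRNA probe, over all 10 arrays (left, 190 probes) and in run 1 (right, 182 probes). Purple points lie past the dotted line, at an unadjusted limma p of 0.05. There are 7 such probes in each panel, and none passed after adjustment; mouselincRNA0325+ is the point farthest to the right in both.

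The probe with the smallest p over all 10 arrays was mouselincRNA0325+. It read -2.36, -0.65, -2.05, -1.64 and -2.95 in controls 1 to 5 and -0.26, -0.16, -0.88, 0.57 and -1.52 in MWCNT mice 1 to 5. Control 2 is the highest control and lies among the MWCNT mice, and MWCNT 5 is the lowest exposed mouse and lies among the controls, so the groups overlap. The means were -1.93 ± 0.86 (SD, n = 5) in controls and -0.45 ± 0.79 (SD, n = 5) in MWCNT mice. The difference was 1.48 ± 0.44 (SE), a 2.79-fold higher MWCNT mean, with a 95% interval of 0.53 to 2.43 and an unadjusted limma p of 0.00522 (adjusted p = 0.809). Within run 1 the MWCNT mean was 2.82-fold higher, with a 95% interval of 0.53 to 2.47 on the log2 scale (limma adjusted p = 0.919), and control 2 again lies above MWCNT 3. The authors' deposited table gave 1.48 over all 10 arrays in the same limma fit.

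This probe also had the largest SD of the tested mouselincRNA probes over the arrays of run 1, at 1.03. That SD takes both groups together and so includes the difference between them. Within groups the SD was 0.86 among controls and 0.39 among the MWCNT mice of run 1. Its fold change depends on how the arrays are weighted or blocked: it was 0.95 with array weights over all 10 arrays, and in run 1 it was 2.52 with the array's column on the slide as a block, with no call in either (limma adjusted p = 0.553 and 0.660). In run 1, controls 1 to 4 lie in column 1, and control 5 and the 3 MWCNT mice in column 2. With that block the estimate therefore rests on control 5, the lowest control. Its minus-sign partner was above background on 2 arrays, both of MWCNT mice. Of the 40 mouselincRNA probes above background on exactly 2 arrays, 38 were so on the 2 arrays of run 2.

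Among the probes with a higher MWCNT mean, the next smallest p-values belonged to a pair of dim plus-sign probes near the detection limit. The levels of mouselincRNA0214+ were -5.33, -5.95, -5.95, -4.96 and -6.05 in controls and -4.24, -5.03, -5.49, -4.89 and -4.67 in MWCNT mice. Those of mouselincRNA0118+ were -6.35, -5.09, -6.48, -5.08 and -5.62 in controls and -3.52, -5.27, -5.13, -4.69 and -5.05 in MWCNT mice, with MWCNT 1 far above the rest. Each was well above background in 2 of 5 controls, and in 5 and 4 of the 5 MWCNT mice respectively. Both thus passed the filter of 5 mice through the MWCNT group, where they were higher. The log2 fold changes were 0.78 ± 0.28 (SE) and 0.99 ± 0.38 (SE), with an adjusted p of 0.809 for both in limma. With the background correction that adds an offset of 50 before the log is taken, which compresses dim probes, they were 0.07 and 0.16.

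For 3 brighter probes the 2 arrays of run 2 raised the MWCNT mean, which was also higher within run 1 but by less. On mouselincRNA0722- the controls read -0.61, -1.13, -0.70, -0.71 and -0.90 and the MWCNT mice -0.58, -0.81, -0.31, 1.20 and 0.89. On mouselincRNA1318+ the controls read -1.08, -1.62, -1.29, -0.83 and -0.84 and the MWCNT mice -0.76, -1.06, -0.71, 0.88 and 0.05. In both, MWCNT mice 1 to 3 lie in or near the range of the controls, while MWCNT 4 and 5 lie above all other arrays. The log2 fold changes of 0.89 and 0.81 over all 10 arrays were 0.24 and 0.28 within run 1. The third, mouselincRNA0567-, read -1.18, -2.26, -3.23, -3.16 and -1.87 in controls and -1.95, -2.05, -1.73, -0.78 and -0.53 in MWCNT mice, again with MWCNT 4 and 5 on top, and its values were 0.93 and 0.43. Between the scan runs, MWCNT mice alone, these 3 probes were higher in run 2 by 1.61, 1.31 and 1.25 (limma adjusted p = 0.0210, 0.0332 and 0.0243).

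The single probe with a lower MWCNT mean at an unadjusted p under 0.05 was mouselincRNA0869+. Its levels were -5.68, -5.62, -5.89, -5.41 and -5.24 in controls and -5.74, -6.23, -6.14, -6.06 and -6.41 in MWCNT mice. MWCNT 1 lies among the controls and the other MWCNT mice below them all, and the difference was -0.55 ± 0.19 (SE; limma adjusted p = 0.809). The probe was above background in 3 controls, no MWCNT mouse of run 1 and both of run 2, too few in run 1 to be tested there. With the offset of 50 the difference was -0.28.

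The largest negative fold changes came mostly from 1 array. A value of -1.57 for mouselincRNA0188+ and of -1.23 for mouselincRNA0009- made these the 2 mouselincRNA probes with an MWCNT mean at least 2-fold lower. On MWCNT 4 both spots had the lowest processed signal that the array gives, 3.17, and were not above background, while every other array read 129 to 318 signal units for mouselincRNA0188+ and 136 to 311 for mouselincRNA0009-. On the scaled level MWCNT 5 was also low for mouselincRNA0188+, at -3.79 with the arrays of run 1 at -2.60 to -1.93. Without MWCNT 4 the differences of the 2 probes were -0.26 and 0.04, and within run 1 they were 0.15 and -0.05. The unadjusted limma p over all 10 arrays was 0.173 and 0.252.

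Within run 1 the smallest p belonged to mouselincRNA1266+, followed among the lower probes by mouselincRNA0309-, mouselincRNA0655+ and mouselincRNA0463-. The levels of mouselincRNA1266+ were -2.98, -3.26, -3.29, -2.68 and -3.10 in controls and -3.54, -3.86, -3.68, -1.92 and -2.30 in MWCNT mice. Those of mouselincRNA0655+ were 1.16, 1.07, 0.81, 1.53 and 1.18 in controls and 0.54, 0.48, 0.71, 2.18 and 2.03 in MWCNT mice. On both, MWCNT mice 1 to 3 lie below all 5 controls and MWCNT 4 and 5 lie above all 5. The differences in run 1 were -0.63 ± 0.18 and -0.57 ± 0.18 (SE; limma adjusted p = 0.913 and 1.00), and over all 10 arrays they were 0.00 and 0.04. Run 2 exceeded the MWCNT mice of run 1 by 1.58 and 1.53 (limma adjusted p = 0.0210 and 0.0189).

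The other lower pair, also without overlap in run 1, was mouselincRNA0309- and mouselincRNA0463-. The first read 0.53, 0.58, 0.24, 0.53 and 0.32 in controls and -0.28, 0.17, -0.21, 0.52 and 0.66 in MWCNT mice. MWCNT 1 to 3 were below every control and MWCNT 4 and 5 were inside or above their range. Its difference in run 1 was -0.54 ± 0.16 (SE; limma adjusted p = 0.965) and over all 10 arrays -0.27. The second read -4.68, -5.09, -5.07, -4.55 and -4.89 in controls and -5.33, -5.33, -5.48, -4.73 and -5.13 in MWCNT mice, a difference in run 1 of -0.52 ± 0.17 (SE; limma adjusted p = 1.00). Here MWCNT 1 to 3 are below every control, MWCNT 5 is just below the lowest of them and MWCNT 4 is among them.

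Above all 5 controls in run 1 lay mouselincRNA0263+ and mouselincRNA1222+. The former read -3.11, -3.16, -3.09, -3.17 and -3.34 in controls and -2.78, -2.86, -2.94, -2.96 and -3.15 in MWCNT mice. This is a small difference between closely spaced values, 0.31 ± 0.14 in run 1 (SE; limma adjusted p = 1.00), with MWCNT 5 of run 2 back in the range of the controls. For mouselincRNA1222+ the controls read -5.20, -4.87, -4.79, -4.73 and -5.85, and the MWCNT mice -4.61, -4.65, -4.57, -5.56 and -5.06. The exposed mice of run 1 lie just above the upper controls, and the difference of 0.48 had an unadjusted limma p of 0.0853. With the array column as a block, which sets the exposed mice against control 5, it was 1.24 (limma adjusted p = 0.636).

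**Figure D5:**
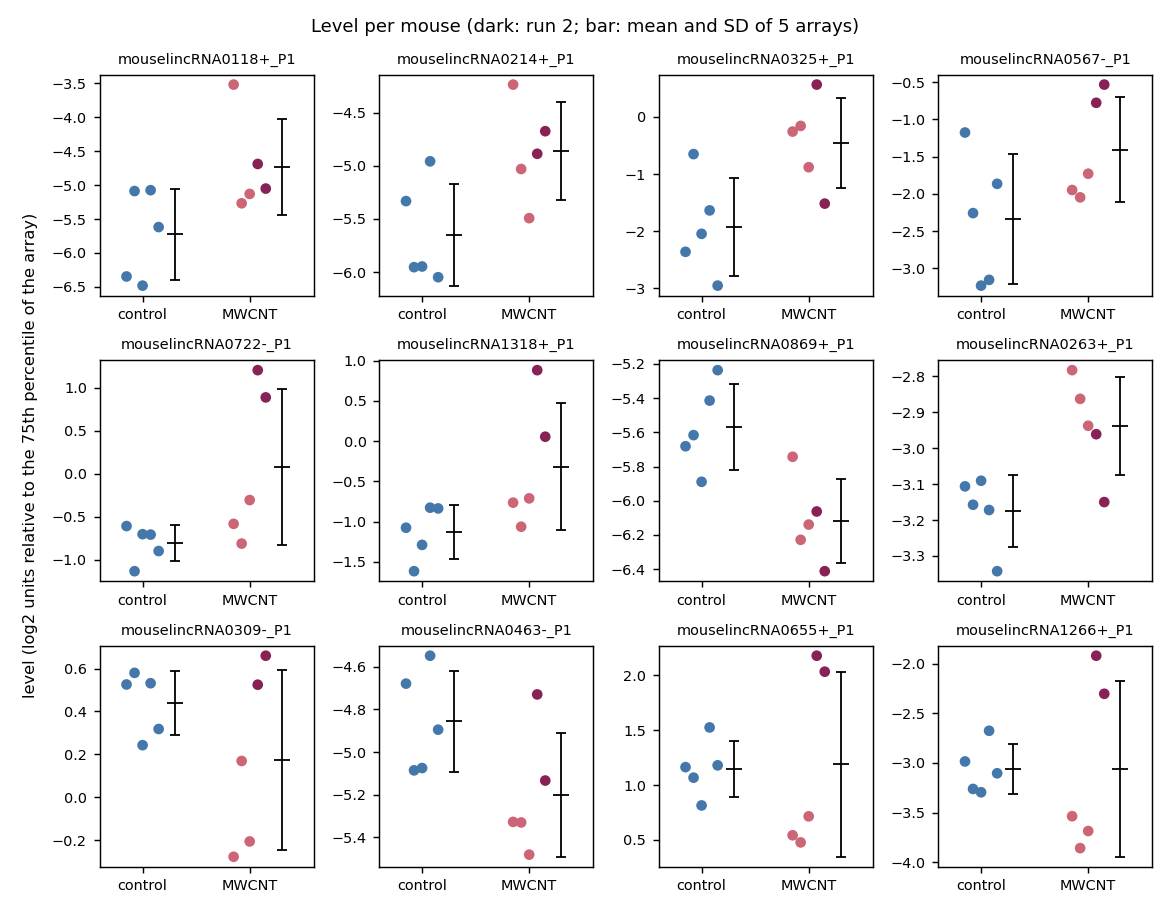
Level per mouse (y axis, log2 units relative to the array's 75th percentile) in control and MWCNT mice (x axis) for the 12 mouselincRNA probes at an unadjusted limma p under 0.05 over all 10 arrays or within run 1; points are mice, dark points are run 2, and the bar is the mean and SD of 5 mice. In mouselincRNA1266+ and mouselincRNA0655+ the controls lie between the MWCNT mice of run 1, below, and those of run 2, above.

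The difference between scan runs was the only contrast in which mouselincRNA probes were called. Among the 5 MWCNT mice, 192 mouselincRNA probes were tested, and 50 (26.0%) differed between run 2 (n = 2) and run 1 (n = 3) at a limma adjusted p under 0.05, against 24.5% of the 28165 probes tested. Of the 50, 32 were higher in run 2 (16.7%, against 10.6%) and 18 lower (9.38%, against 13.9%), with differences of -1.69 to 2.01. This split turns with the processing: with normexp 26 of 74 called mouselincRNA probes were higher in run 2, or 35.1% (21.1% of all called probes), and with no filter 57 of 350, or 16.3% (20.2%), where 64% were higher as reported (43.2%). This contrast holds exposure constant and compares separate mice, so run and mouse cannot be told apart.

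The widest of these differences were in mouselincRNA0086+ and mouselincRNA1224-, which were higher in run 2 by 2.01 ± 0.37 and 1.98 ± 0.33 (SE; limma adjusted p = 0.0263 and 0.0238). In MWCNT mice 1 to 5 mouselincRNA0086+ read -1.47, -1.89, -1.34, 1.00 and -0.11, against -0.99, -1.72, -2.27, -0.82 and -0.98 in controls. For mouselincRNA1224- the MWCNT mice read -5.29, -6.20, -5.68, -3.45 and -4.03, and the controls -4.92, -4.85, -5.12, -6.73 and -5.06. The arrays of run 2 stand above all arrays of run 1, exposed or control, in both. Of the 18 lower probes, that of smallest p was mouselincRNA0735-. It read -4.51, -4.25, -4.42, -5.79 and -5.76 in MWCNT mice and -4.49 to -4.12 in controls, a difference of -1.38 ± 0.20 (SE; limma adjusted p = 0.0210).

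Within run 1 a few probes varied widely between mice of the same group. After mouselincRNA0325+ and mouselincRNA0118+, the largest SDs were those of mouselincRNA1171- (0.90), mouselincRNA1124- (0.82) and mouselincRNA0130- (0.82). In mouselincRNA1171- it was MWCNT 3 that stood apart, at -3.18 with every other array of run 1 at -6.07 to -5.04. In mouselincRNA1124- it was control 4, at -2.05 with the others at -4.69 to -3.31. On mouselincRNA0130- the controls read -1.87, -3.07, -3.54, -3.25 and -3.54 and the MWCNT mice -4.27, -2.26, -2.20, -2.11 and -2.48, so that control 1 and MWCNT 1 each lie on the side of the other group. None of the 3 was called between groups.

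Where both probes of a region were tested, their levels did not move together as a rule. Across the 10 arrays, Pearson's r between the 2 probes of a pair had a median of 0.04 over 30 pairs, with a range of -0.83 to 0.82. The points share arrays and their scaling, so these values are a description. In run 1 (8 arrays) the median was 0.10. The extremes there were mouselincRNA0295 (r = 0.83) and mouselincRNA1377 (r = -0.74). The fold changes of the 2 probes had the same sign in 13 of 30 pairs over all 10 arrays and in 14 of 28 pairs in run 1.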

How the data were processed

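RNA from whole blood of 10 mice was hybridised to 1-colour arrays, 1 per mouse; groups came from the labels. Per the file headers, Agilent Feature Extraction 11.0.1.1 gave each spot's processed signal intensity, with background subtracted; on 3 arrays, controls 1, 2 and 5, it also removed a multiplicative trend, which moved single probes by -0.15 to 0.33 log2 units. The authors' deposited table holds log2 values for all 649 mouselincRNA probes, with a normalization not given in the sources used here. Column medians were 4.17, and correlation with the scanner values was 0.988 to 1.00, which gave scale and direction.

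Control spots and spots marked as outliers (3 of mouselincRNA probes) were left out; none of these probes was saturated. The log2 processed signal was scaled to each array's 75th percentile over 23245 probes above background on all arrays. Tests were 2-sided and used limma 3.58.1 (lmFit, eBayes) under R 4.3.3. P-values were adjusted by Benjamini-Hochberg over every tested probe of the array, at a threshold of 0.05. The step was tested on simulated data. Scan run and array column are those of the file headers. No aligner or genome enters these values.

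The members, lists and rules were chosen with earlier results of these data known. Named probes are the 6 higher and 6 lower of smallest p over all 10 arrays and again in run 1, the 5 brightest, the 5 of widest SD in run 1, and the 3 sign pairs of largest level difference, with the text giving those the results turn on; probes past 2-fold, the widest differences between runs and the extreme pair correlations were chosen after their values were seen. Alternatives were other scalings, other filters, normexp with an offset of 50, the deposited values, blocks, array weights, a trended variance and each array left out. The normexp correction was planned on the mean spot signal and used the median signal, which the files hold. The signal without the multiplicative trend removed was added after seeing the data. The replicate numbers were not taken as pairs, since same-numbered mice correlated at -0.45 to 0.33 in their deviations from the group means.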

Additional observations from a re-analysis of the deposited data

Results flagged for a closer look

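On mouselincRNA0130- a single array stood apart in each group, by Dixon's test of the gap to the nearest other array over the whole range (critical value 0.71 for 5 arrays). Control 1 was at -1.871 with the other controls at -3.54 to -3.07, and MWCNT 1 was at -4.266 with the other MWCNT mice at -2.48 to -2.11. In all, 60 groups of 5 arrays were tested, in which chance flags about 1 in 20, or 3, and 2 were found, both on this probe. That rate holds for probes chosen without regard to their values. Many of these were named for small p or wide spread, mouselincRNA0130- for its spread, so it is a rough guide only.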

How the results depend on the processing

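The count of called mouselincRNA probes was 0 between MWCNT and control under all 23 alternatives over 10 arrays and all 19 in run 1. The smallest adjusted p-values were 0.453 and 0.560 in limma. The 24 fold changes named for their small p kept their direction, without a call, in all 447 alternative values. Choice by small p favours a steady direction, so this does not speak for other probes. For the probes named over 10 arrays, these values leave out the run 1 fit with the array column as a block. In that fit mouselincRNA1453+, mouselincRNA0303-, mouselincRNA0567- and mouselincRNA1318+ turned, to 0.23, 0.03, -0.04 and -0.01. Over 10 arrays they were -0.61, -0.53, 0.93 and 0.81. The others tested there kept their direction. Outside the 24, mouselincRNA0009- went from -1.23 to 0.04 without MWCNT 4, and mouselincRNA0188+ from -1.57 to 0.15 in run 1. The count at an unadjusted p under 0.05 moved more than the count of called probes. Over 10 arrays it was 7 (3.68%, against 2.87% of all tested probes), and became 4 with a filter on every array (2.61%, against 2.85%), 17 with no filter (2.62%, against 2.67%), 11 with the scan run as a block (5 higher, 6 lower; 5.79%, against 3.54%) and 16 with array weights (8.42%, against 8.64%). It ranged from 3 to 19 when 1 array was left out, being 3 without control 2, 3 and 4 without MWCNT 5 and 4, and 19 and 15 without MWCNT 1 and 2 (10.1 and 7.94%, against 9.46 and 6.86%). With a replicate block it was 8, and the block changed no call. In run 1 it was 7, and became 26 with no filter (4.01%, against 4.67%) and 12 with the array column as a block (6.59%, against 5.65%); with 1 array left out it was 5 to 11, the latter without control 4 (6.25%, against 3.74%). With no filter the median fold change was -0.19 over 10 arrays and 0.18 in run 1, since most probes are then at background. The members' median over 10 arrays, 0.02, was -0.04 with median scaling and with normexp. In run 1, where it was 0.04, other scalings and normexp gave -0.05 to 0.03. The split of the unadjusted counts in run 1, 3 higher and 4 lower, was 1 and 4 with normexp. Between scan runs 50 probes were called, and 350 with no filter (57 higher, 293 lower; 53.9%, against 44.3% of all probes). With normexp there were 74 (38.5%, against 49.98%), of which 26 were higher. Other scalings gave fewer calls and a wider gap to the array. There were 43 with the deposited values (22.4%, against 16.9%), 43 with quantile scaling (22.4%, against 17.3%) and 40 with cyclic loess scaling (20.8%, against 15.7%). Probes under background have only a bound, and a 2-fold difference was not detectable for many dim probes. Without the multiplicative detrending of controls 1, 2 and 5 the counts were 7, 6 and 50.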
